A study of Homo sapiens with 6 samples.

Results

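miR-191 and miR-425 are a pair of microRNAs (miRNAs) cut from neighbouring hairpins in an intron of DALRD3 and reported as estrogen-responsive in breast cancer. Their 4 mature arms, miR-191-5p, miR-191-3p, miR-425-5p and miR-425-3p, were taken by name from the 2656 mature miRNAs of a count table. All 4 had counts in every library and passed the filter on low counts, as did 783 miRNAs in all. The libraries are of small RNA from KPL4, an established line of human breast adenocarcinoma cells known to overexpress ERBB2 and to lack estrogen receptor α (ERα). In 3 libraries the cells were ERβ knockout cells into which exogenous ERβ had been transfected, called exogenous ERβ libraries 1, 2 and 3. In the other 3 they were ERβ knockout cells alone, called knockout libraries S1, S2 and 3. Both groups therefore carry the knockout, and the labels give no treatment. ERβ, the product of ESR2, is a nuclear receptor for estrogens whose messenger RNA this assay does not measure. No empty-vector group is among the samples, and whether 1 knockout clone gave both groups is not stated, so ERβ and any other difference between the cells cannot be told apart. Separate cultures are not stated for the replicates either, and p-values then cover the spread between these libraries alone, which may be technical.

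Each hairpin is cut into a duplex, and usually 1 arm is kept in the silencing complex while the other is largely degraded. The kept arm pairs with target messenger RNAs mainly through its seed, bases 2 to 8. The miR-191 and miR-425 hairpins are thought to be made from a common primary transcript, which estrogen acting through ERα was reported to raise in breast cancer cells. Reported targets of miR-191 include EGR1 and SATB1. miR-191-5p is also widely used as a reference miRNA in RT-qPCR because its level was found steady across many tissues.

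The sequences of the arms are shown because their seeds set which messages each could pair with, and because the arms of 1 hairpin were counted apart. They are from RefSeq (GRCh38.p14), all on the minus strand of chromosome 3, written 5′ to 3′ with the seed in capitals. The table used here gave a mature sequence for 3 of the 4 members, all but miR-425-5p.
miR-191-5p: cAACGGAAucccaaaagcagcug
miR-191-3p: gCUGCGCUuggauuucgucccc
miR-425-3p: aUCGGGAAugucguguccgccc
None of these 3 seeds occurred in another of the 2370 mature miRNA names of that table, so the 3 arms have no seed relative there. miR-191-5p lies at chr3:49020672-49020694 (23 bases), miR-191-3p at chr3:49020631-49020652 and miR-425-3p at chr3:49020159-49020180 (22 bases each). The miR-191 hairpin of 92 bases shows where both arms are cut, the 5p arm and then the 3p arm in capitals.
MIR191 hairpin: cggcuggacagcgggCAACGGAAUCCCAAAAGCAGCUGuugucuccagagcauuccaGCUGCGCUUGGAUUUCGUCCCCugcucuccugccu
The hairpin of miR-191 (chr3:49020618-49020709) and that of miR-425 (chr3:49020148-49020234) are 383 bases apart, with miR-191 first in the direction of transcription. In GENCODE release 29, whose coordinates for both hairpins are the same, each hairpin lies in the first intron of all 4 DALRD3 transcripts that span it and in no exon. DALRD3 is the host gene and encodes a protein with an anticodon-binding domain. The miR-191 hairpin also lies, in antisense, in the first intron of 1 transcript of NDUFAF3, which encodes a mitochondrial complex I assembly factor.

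Libraries held 10288413 to 14296900 counts with exogenous ERβ and 10618999 to 12228519 counts in knockout cells. Levels are given as CPM, a miRNA's counts relative to its library's total, scaled by TMM factors, which correct for differences in composition. Knockout library S2 stood apart. The median absolute log2 difference per miRNA was 0.10 to 0.12 between the exogenous ERβ libraries and 0.12 between knockout libraries S1 and 3. It was 0.26 and 0.28 between S2 and the other knockout libraries, so fold changes of the 4 arms are given with and without S2. Of 8 epithelial marker miRNAs all were abundant enough to test: miR-375-3p, miR-200c-3p, miR-203a-3p and miR-141-3p were lower with exogenous ERβ, miR-205-5p was higher (0.52 ± 0.08) and 3 did not pass, with a median log2 fold change of -0.25. Their summed level was 93296 to 98049 CPM with exogenous ERβ and 94598 to 110642 CPM in knockout cells. Of 16 markers of blood, endothelial, stromal, muscle, liver and neural cells 8 could be tested, and 3 were lower and 0 higher with exogenous ERβ. Their summed level was 18174 to 20072 CPM with exogenous ERβ and 21666 to 23229 CPM in knockout cells, nearly all of it from the arms of miR-126. The blood markers summed to 19.2 to 22.1 CPM with exogenous ERβ and 18.6 to 23.5 CPM in knockout cells, and the neural marker miR-124-3p had 1 count over the 6 libraries together. Beside these calls, 13.3% of all 783 tested miRNAs were lower and 9.83% higher with exogenous ERβ. The part of these markers in the results below was not tested.

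With exogenous ERβ, miR-191-5p was lower than in knockout cells, and the other 3 arms did not pass the test. The fall of miR-191-5p was 27.6%, and the fitted values of the other arms all lay below 0. With knockout library S2 left out, miR-191-5p and miR-425-5p both passed, at nearly the same size. In that fit 34.9% of 800 tested miRNAs were called and 19.6% were lower. With all libraries, 13.3% of the 783 tested miRNAs were lower and 9.83% higher by the same test, so 1 lower arm of 4 is near the background. Scaling by library totals shifts the median of all miRNAs to 0.14, against -0.01 with TMM factors, and splits the calls into 146 higher and 61 lower, against 77 higher and 104 lower.

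miR-191-5p, the arm credited with most of the miR-191 function, had 11739, 11930 and 11741 CPM in exogenous ERβ libraries 1, 2 and 3, against 14902, 20057 and 13965 CPM in knockout libraries S1, S2 and 3. The groups did not overlap: the exogenous ERβ libraries lay close together, and S2 was far above the other knockout libraries. The means were 11803 ± 110 CPM with exogenous ERβ and 16308 ± 3281 CPM in knockout cells (SD, n = 3 each). The log2 fold change, exogenous ERβ over knockout, was -0.47 ± 0.12 (SE; edgeR's quasi-likelihood test, p adjusted by Benjamini-Hochberg over all tested miRNAs = 0.0238), with a 95% interval of -0.74 to -0.19. In bulk RNA, less miRNA in each cell and fewer cells that hold it cannot be told apart. Without S2 the log2 fold change shrank to -0.29 ± 0.04 and the adjusted p by the same edgeR test was 6.04e-06. With all 6 libraries, scaling by the upper quartile ended the call (-0.36, edgeR adjusted p = 0.0727), as did library totals (-0.32, 0.143) and the replicate block (-0.43, 0.127). Leaving out exogenous ERβ library 1 (0.124), 2 (0.118) or 3 (0.102) ended it as well. With S2 left out, miR-191-5p passed with upper-quartile factors (-0.21, edgeR adjusted p = 0.000395), library totals (-0.10, 0.0464) and DESeq2 size factors (-0.29, 1.29e-05). In these 3 fits 132, 93 and 154 of 800 tested miRNAs were lower.

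miR-425-5p, the more abundant arm of its hairpin, had 3252, 3223 and 2927 CPM in exogenous ERβ libraries 1, 2 and 3, against 3902, 3316 and 3896 CPM in knockout libraries S1, S2 and 3. Here S2 was the lowest knockout library, just above the highest exogenous ERβ library, while S1 and 3 were nearly equal. The means were 3134 ± 180 CPM with exogenous ERβ and 3705 ± 337 CPM in knockout cells (SD, n = 3 each). The log2 fold change of -0.24 ± 0.09 did not pass (edgeR quasi-likelihood test, adjusted p = 0.0718; 95% interval -0.43 to -0.05). Without S2 miR-425-5p fell by 0.31 ± 0.05 on the log2 scale (edgeR adjusted p = 1.19e-05), where 34.9% of 800 tested miRNAs were called and 19.6% were lower. With S2 left out the call also held with DESeq2 size factors (-0.31) and with upper-quartile factors (-0.24), but not with library totals (-0.13, edgeR adjusted p = 0.0677).

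**Figure D1:**
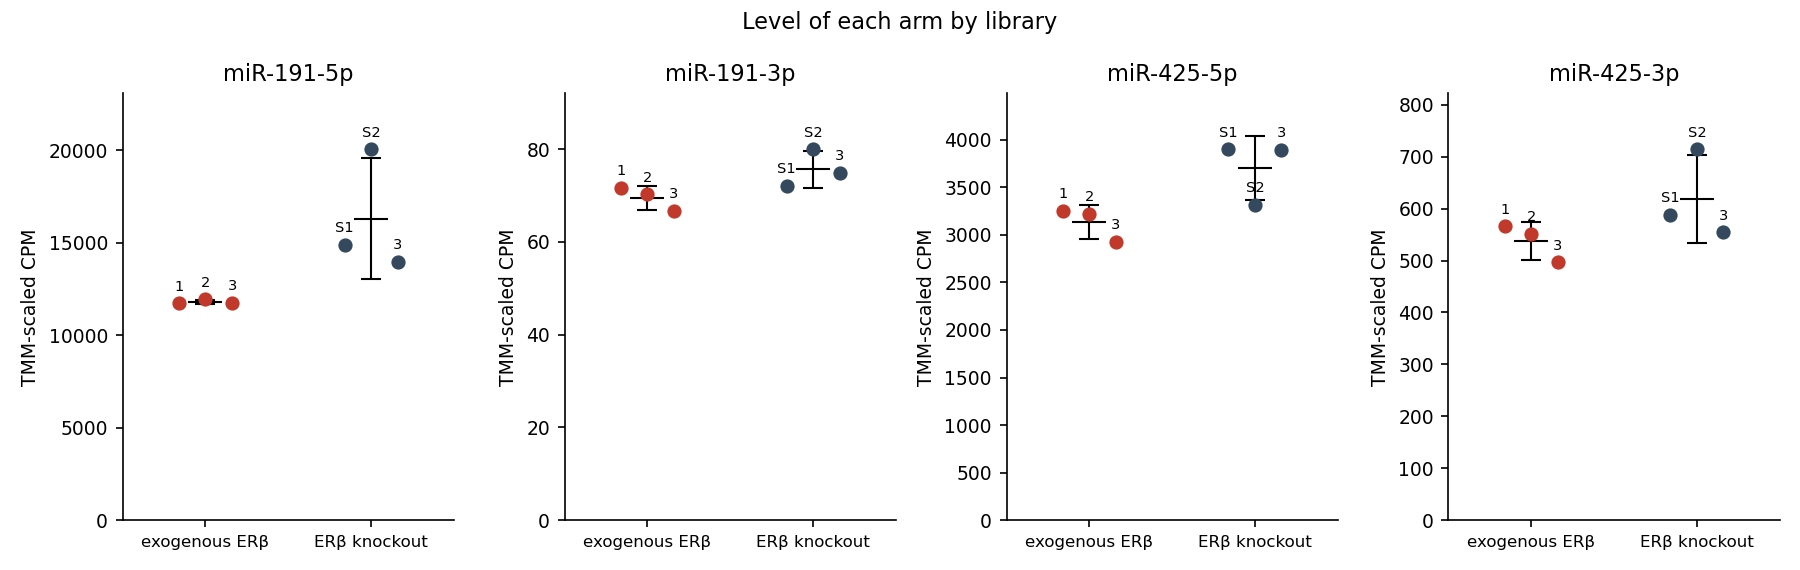
TMM-scaled CPM (linear axis from 0) of each arm in the 3 exogenous ERβ libraries, left, and the 3 knockout libraries, right, each point labelled with its library; the line and bars are the mean and SD. On this scale the exogenous ERβ libraries lie below all knockout libraries except for miR-425-3p, while as shares of library totals only miR-191-5p separates the groups. S2 is the highest knockout library for every arm but miR-425-5p, where it is the lowest.

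The passenger arms were less abundant. miR-191-3p, the minor arm of its hairpin, had 71.7, 70.2 and 66.7 CPM in exogenous ERβ libraries 1, 2 and 3, against 72.1, 80.0 and 74.9 CPM in knockout libraries S1, S2 and 3. The groups did not overlap, but by a margin of less than 1 CPM, and the counts behind these values were 736 to 1051 per library. The log2 fold change was -0.12 ± 0.09 (edgeR adjusted p = 0.407; 95% interval -0.33 to 0.09), and with library totals it turned to 0.03. miR-425-3p had 566, 551 and 497 CPM in exogenous ERβ libraries 1, 2 and 3, against 588, 715 and 554 CPM in knockout libraries S1, S2 and 3. The groups overlapped, since exogenous ERβ library 1 lay above knockout library 3. Its log2 fold change was -0.20 ± 0.11 (edgeR adjusted p = 0.218; 95% interval -0.44 to 0.04). Without S2 the values were -0.08 for miR-191-3p (edgeR adjusted p = 0.372) and -0.09 for miR-425-3p (0.239), and neither passed. By TMM-scaled CPM 20.9% of all tested miRNAs lay lower in every exogenous ERβ library than in any knockout library, as 3 of the 4 arms did. Another 18.9% lay higher in every one. As shares of library totals only miR-191-5p stayed apart. miR-425-5p held 0.351% in exogenous ERβ library 1 and 0.328% in S2, and miR-191-3p held 0.00774% in exogenous ERβ library 1 and 0.00668% in S1.

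**Figure D2:**
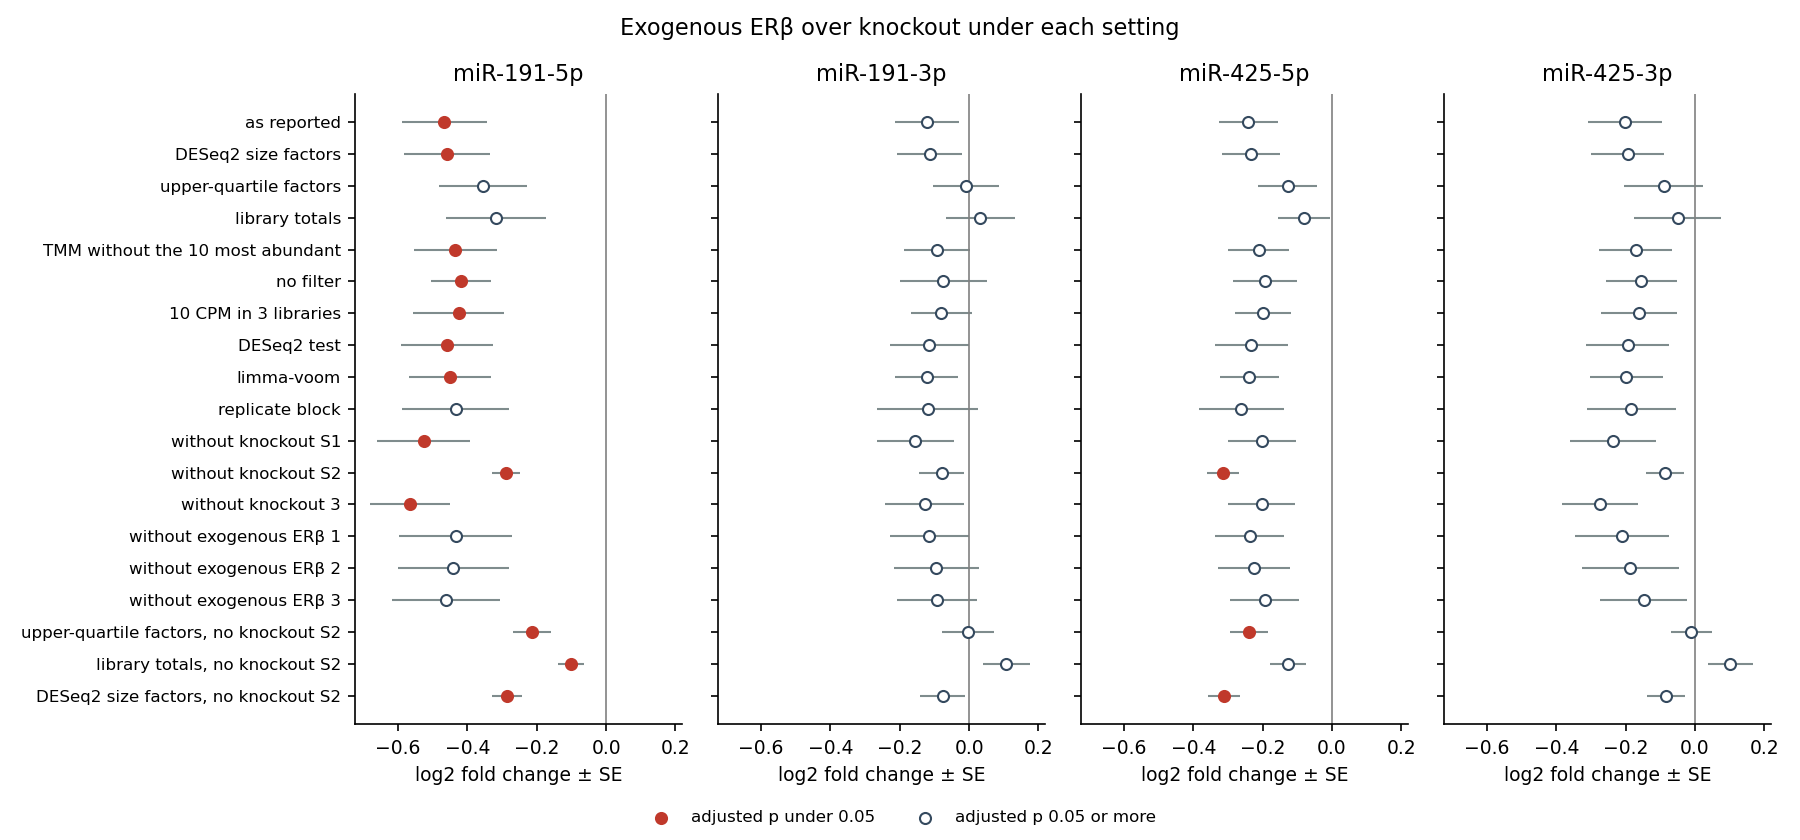
Log2 fold change (exogenous ERβ over knockout) ± SE of each arm, down the page, as reported and under 18 other settings; filled points have an adjusted p under 0.05. miR-191-5p is below 0 in all 18 and passes in 12 of them, miR-425-5p is below 0 in all 18 and passes in 3, all without knockout library S2, and the 3p arms pass in 0.

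The order of the arms was the same in every library, miR-191-5p first, then miR-425-5p, miR-425-3p and miR-191-3p, and each step was far larger than the spread between libraries. miR-191-5p ranked 16th of the 783 tested miRNAs by mean CPM, between let-7b-5p and miR-26b-5p, and held 1.22 to 1.27% of all counts with exogenous ERβ and 1.29 to 1.98% in knockout cells. miR-425-5p ranked 61st, between miR-10a-5p, a HOX-cluster miRNA, and miR-934. miR-425-3p ranked 104th, next to miR-342-3p and miR-130a-3p, and miR-191-3p 209th, next to miR-7-1-3p and miR-500a-3p. Over all 6 libraries miR-191-5p averaged 14056 CPM, let-7b-5p 14382 CPM and miR-26b-5p 13799 CPM, differences smaller than the SD of miR-191-5p in knockout cells. The average of 3419 CPM of miR-425-5p was likewise within the SD of that of miR-10a-5p, 3452 CPM.

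Ratios within a library need no scaling and show how the arms moved against each other. The 3p arm held 0.607, 0.585 and 0.565% of miR-191 counts in exogenous ERβ libraries 1, 2 and 3, against 0.481, 0.397 and 0.533% in knockout libraries S1, S2 and 3. All 3 exogenous ERβ libraries were above all 3 knockout libraries, but the exact 95% binomial interval of exogenous ERβ library 3 (0.530 to 0.601%) overlapped that of knockout library 3 (0.495 to 0.573%). These intervals cover counting error only. The log2 ratio of miR-191-5p over miR-191-3p was 7.41 ± 0.05 with exogenous ERβ and 7.73 ± 0.22 in knockout cells, a difference of -0.33 (exact two-sided permutation test, p = 0.1, the smallest that 3 against 3 allows; 0.4 adjusted over 4 ratios). Without S2 the difference was -0.21.

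For miR-425 the 3p arm was far less of a minority: it held 14.8, 14.6 and 14.5% of counts in exogenous ERβ libraries 1, 2 and 3, against 13.1, 17.7 and 12.5% in knockout libraries S1, S2 and 3. S2 was above and the other knockout libraries below all exogenous ERβ libraries. The log2 ratio of miR-425-5p over miR-425-3p differed by -0.04 (exact permutation p = 1.0), and without S2 by -0.23.

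Between the hairpins, miR-191-5p had 3.61, 3.70 and 4.01 counts for each count of miR-425-5p in exogenous ERβ libraries 1, 2 and 3, against 3.82, 6.05 and 3.58 in knockout libraries S1, S2 and 3. S2 was far above the other 5 libraries, which lay between 3.58 and 4.01. The difference in log2 ratio was -0.21 (exact permutation p = 0.7), and without S2 it turned to 0.03. The log2 ratio of miR-191-3p over miR-425-3p differed by 0.07 (exact permutation p = 0.5). With 3 against 3 the exact test cannot reach 0.05, so a smaller difference in miR-425-5p than in miR-191-5p was not shown.

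**Figure D3:**
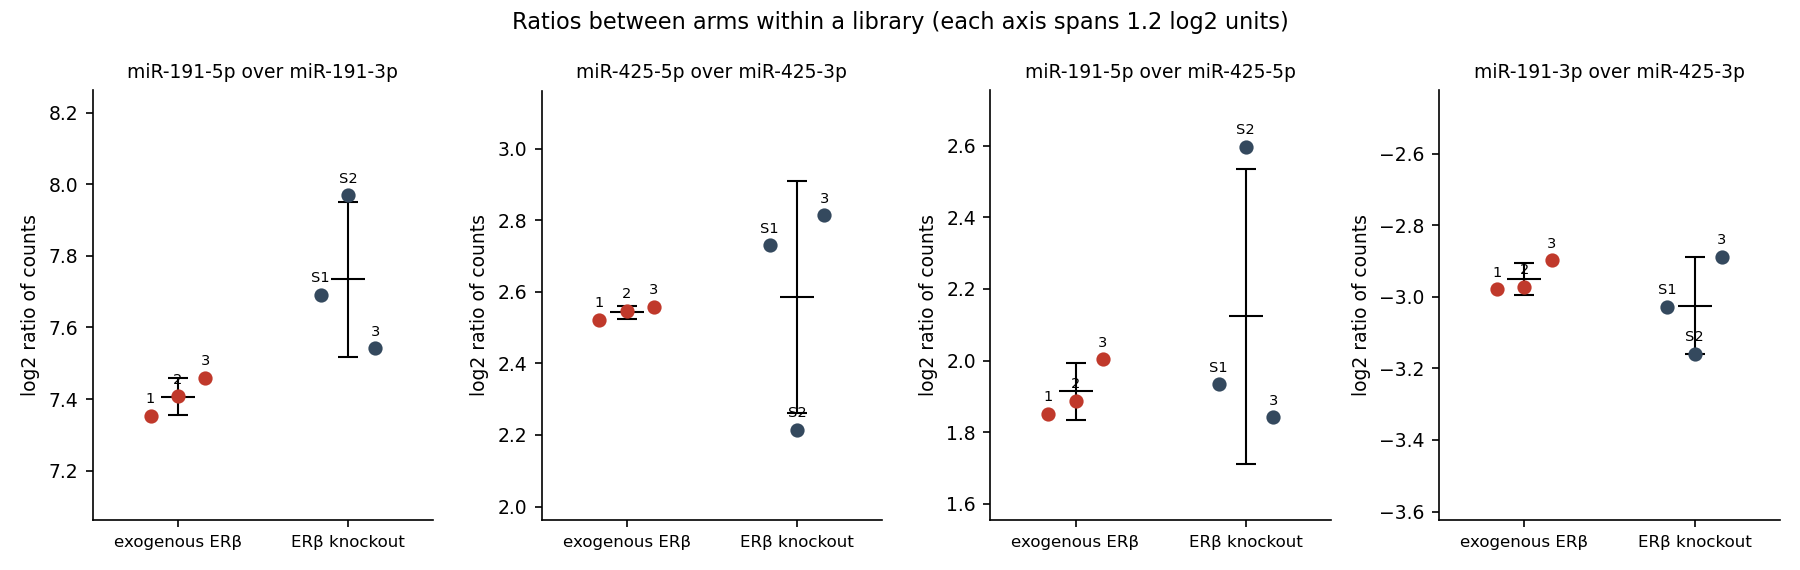
Log2 ratio of counts within each library for 4 pairs of arms, exogenous ERβ left and knockout right, with mean and SD; every axis spans the same 1.2 log2 units. Of these 4 ratios only miR-191-5p over miR-191-3p separates the groups, and S2 lies at an end of the knockout points in all 4 panels.

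Across the 6 libraries, the 3 miRNAs of at least 100 CPM whose log2 CPM followed miR-191-5p most closely, of 190 compared, were let-7b-5p (Pearson r = 0.987), miR-342-3p (0.983) and miR-625-3p (0.982). All 3 were highest in S2, as miR-191-5p was: let-7b-5p had 12597, 12661 and 12784 CPM in exogenous ERβ libraries 1, 2 and 3, against 14357, 19298 and 14597 CPM in knockout libraries S1, S2 and 3. The closest to miR-425-5p were miR-190a-5p (0.941), miR-221-3p (0.940) and miR-375-3p (0.935), which had lower values in S2 than in the other knockout libraries. miR-375-3p, for example, had 206, 187 and 171 CPM in exogenous ERβ libraries 1, 2 and 3, against 289, 253 and 295 CPM in knockout libraries S1, S2 and 3. miR-191-5p and miR-425-5p had r = 0.35 with each other over 6 libraries and 0.93 over the 5 without S2, so the low value rests on S2. With miR-191-3p, miR-191-5p had r = 0.88 over 6 libraries and 0.64 without S2, and with miR-425-3p 0.91 and 0.61. miR-425-5p had 0.45 and 0.87 with miR-191-3p, and 0.25 and 0.76 with miR-425-3p of its own hairpin. These values describe libraries that share their group and their scaling.

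miR-191-5p is commonly used as a reference, so its spread was set beside 16 other miRNAs used in this way. Its coefficient of variation over the 6 libraries was 22.9%, the second highest of the 18 once both 5p arms are counted in, and that of miR-425-5p was 11.5%, the 12th lowest, and 12.7% without S2, the 15th lowest. The lowest was that of miR-16-5p at 2.97%, followed by let-7i-5p (3.55%) and miR-151a-3p (4.37%). Within the groups the coefficient of miR-191-5p was 0.929% with exogenous ERβ and 20.1% in knockout cells. The 22.9% over all 6 libraries also holds the difference between the group means. Without S2 the coefficient of miR-191-5p over 5 libraries was 11.5%, the 12th lowest. Of the 16 others 3 were lower with exogenous ERβ and 0 higher: miR-24-3p (-0.39 ± 0.07), miR-26a-5p (-0.40 ± 0.08) and let-7a-5p (-0.28 ± 0.06), with a median log2 fold change of -0.03 against -0.01 over all tested miRNAs. The next by adjusted p, miR-423-3p, did not pass (-0.36 ± 0.12; edgeR adjusted p = 0.0558). Of all 783 tested miRNAs 13.3% were lower and 9.83% higher by the same test. Without S2, 5 of the 16 others were higher and 4 lower, where 122 of all 800 tested miRNAs were higher and 157 lower. Without knockout library 3, 5 of the 16 were lower, where 88 of all 815 were lower. With library totals 1 of the 16 was higher and 1 lower, where 146 of all 783 were higher and 61 lower.

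Of 31 other miRNAs linked to estrogen or ERα in breast cancer cells, in either direction, 29 could be tested. Of these 17 were lower and 3 higher with exogenous ERβ, with a median log2 fold change of -0.26 against -0.01 over all tested miRNAs. By the same test 13.3% of all 783 tested miRNAs were lower and 9.83% higher. The list was chosen with earlier results of these data known, and members made from a shared cluster were counted apart. The median of the list was -0.15 after upper-quartile scaling and -0.10 after scaling to library totals, where the medians of all miRNAs were 0.10 and 0.14. miR-424-5p, a cell-cycle inhibitor of the miR-15/16 family, averaged 560 CPM with exogenous ERβ and 1195 CPM in knockout cells (-1.09 ± 0.08). miR-20b-5p, of the X-linked paralog of the miR-17 cluster, averaged 284 CPM with exogenous ERβ and 570 CPM in knockout cells (edgeR adjusted p = 3.74e-05). miR-22-3p, which targets ESR1, was at -0.46 ± 0.07 and miR-24-3p at -0.39 ± 0.07 (edgeR adjusted p = 0.00140 and 0.00264). The 3 that were higher, miR-17-5p, miR-18a-5p and miR-20a-5p, named here after their values were seen, are made from the miR-17 cluster, of which the list also holds miR-19a-3p (0.28 ± 0.14), miR-19b-3p (-0.07 ± 0.11) and miR-92a-3p (0.04 ± 0.11), which did not pass. The list holds many abundant miRNAs: of all 88 that averaged at least 1000 CPM, 24 were lower and 7 higher, with a median of -0.10. The number of lower list members was 7 after upper-quartile scaling, 5 after scaling to library totals and 3 with the replicate block. It was 10, 22 and 11 without knockout library S1, S2 or 3. Without exogenous ERβ library 1, 2 or 3 it was 6, 6 and 7. Leaving out any 1 of these exogenous ERβ libraries gave 1 higher. Over all tested miRNAs the numbers lower were 70 with upper-quartile factors, 61 with library totals and 50 with the replicate block. They were 81, 157 and 88 without knockout library S1, S2 or 3, and 58, 60 and 62 without exogenous ERβ library 1, 2 or 3.

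**Figure D4:**
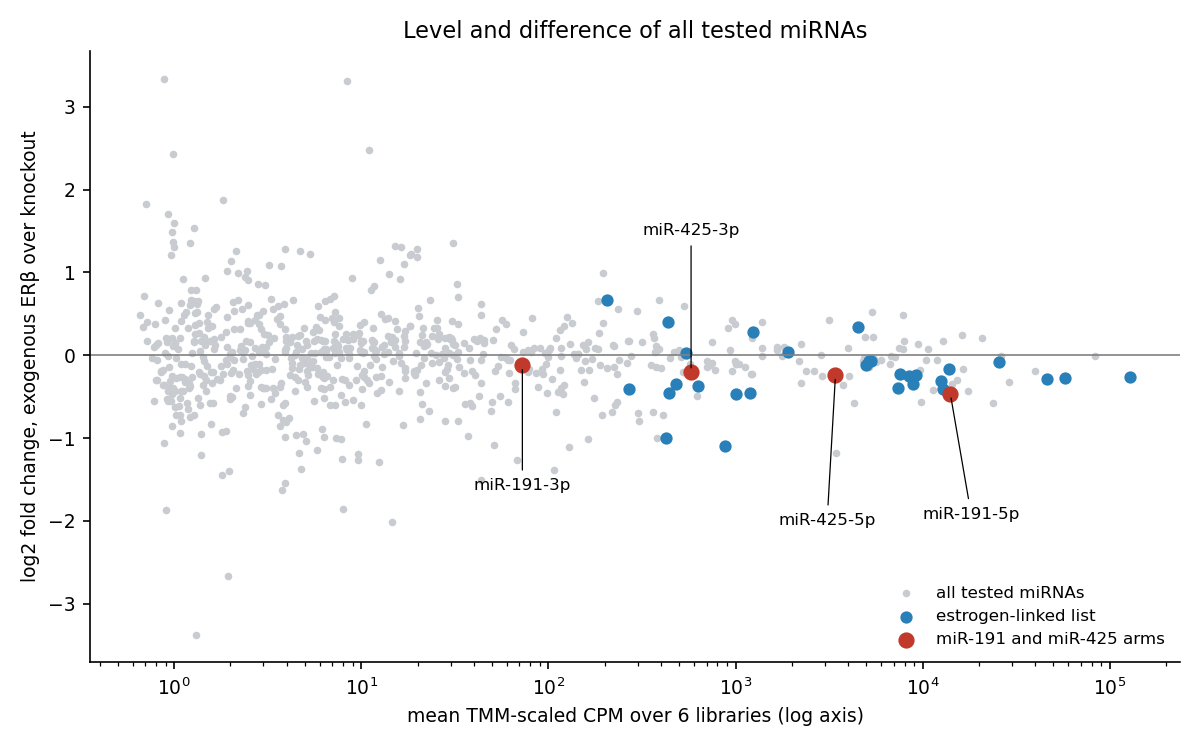
Log2 fold change (exogenous ERβ over knockout) against mean TMM-scaled CPM over 6 libraries (log axis) for all 783 tested miRNAs, with the 29 tested members of the estrogen-linked list in blue and the 4 arms in red. The 4 arms lie between -0.47 and -0.12, within the cloud of miRNAs of similar level.

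Of 28 other mature miRNAs whose hairpins lie within 5 Mb of the pair on chromosome 3, 7 were abundant enough to test, and 2 were lower and 0 higher, with a median of 0.02, beside 13.3% lower and 9.83% higher over all tested miRNAs. let-7g-5p, at chr3:52268336-52268357, averaged 6996 CPM with exogenous ERβ and 8166 CPM in knockout cells (-0.22 ± 0.07; edgeR adjusted p = 0.0392). miR-2115-3p averaged 1.99 CPM with exogenous ERβ and 5.82 CPM in knockout cells (-1.54 ± 0.23; edgeR adjusted p = 0.00126). miR-4787-3p (0.63 ± 0.32) and miR-138-1-3p (-0.43 ± 0.30) did not pass. let-7g-5p passed in 5 of 18 other settings and miR-2115-3p in all 17 that tested it. The number lower was 1 with upper-quartile factors, library totals or the replicate block, and without knockout library S1 or 3 or any 1 exogenous ERβ library. Without S2, 1 was higher.

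The window from 250 bases before to 50 after each of the DALRD3 start sites in RefSeq (GRCh38.p14) was searched on both strands for estrogen response element letters. The palindromic consensus estrogen response element had 0 matches in both windows and occurs in 0.0313% of 35116 such windows. The half-site GGTCA, which is contained in that palindrome, had 0 matches in the window at chr3:49021456-49021755, before both hairpins, and 2 in the window at chr3:49018531-49018830, which lies past them. It occurs in 37.4% of all windows. No match says only that these letters are not in this window.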

How the data were processed

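Small RNA libraries were made with a QIAseq miRNA kit, per the labels' protocols. Per the submitters' processing notes, the tools included FastQC and Trim Galore and the build was GRCh38, with no tool version. The aligner, the counter, the annotation release and any use of molecular identifiers were not given in the sources used here. Expected counts were deposited by the authors for each mature miRNA. Between 6.33 and 7.27% of a library's values are not whole, while those of the 4 arms are. Of the knockout columns 2 carry the number 1 and none the number 2, so S1 and S2, named after their column index, are known by group only; 0 other value columns were present.

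Counts were rounded and fitted together in R 4.3.3 with edgeR 4.0.16: filterByExpr (minimum count 10, minimum total 15), TMM factors, robust quasi-likelihood test, adjustment over 783 miRNAs at 0.05 (269 had an unadjusted p under 0.05). SE was taken as the size of the log2 fold change divided by √F. Ratios had 0.5 added to each count and were tested in SciPy 1.17.1. Every pair of libraries in a group differed by more than counting noise (chi-square per degree of freedom at least 12.2), so all 6 were counted. The fit was tested on simulated counts. Sequences and positions are from RefSeq, where 690 of 783 tested miRNAs had a mature entry. Figures used matplotlib 3.10.9.

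Named miRNAs are the 4 arms, up to 4 members of each list by adjusted p, same-seed miRNAs, the 3 most alike of at least 100 CPM and the neighbours in rank. Epithelial markers, the lower markers of other cells, the 3 reference miRNAs of lowest spread and the miR-17 cluster members were named after their values were seen. The members and lists were chosen with earlier results of these data known. Alternatives were 4 other scalings, 2 filters, the DESeq2 1.42.0 test, limma-voom (limma 3.58.1), a block on replicate number, leaving out each library in turn, and other pseudocounts for ratios; 3 scalings without S2 were added after the data were seen.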

Additional observations from a re-analysis of the deposited data

How the results depend on the processing

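Against the reported values, miR-191-5p stayed below 0 in all 18 alternatives and miR-425-5p in all 18. With all 6 libraries, miR-191-5p lost its call with upper-quartile factors (-0.36), library totals (-0.32) and the replicate block (-0.43). With a library left out it ranged from -0.57 to -0.29, with edgeR adjusted p from 6.04e-06 to 0.124, and miR-425-5p from -0.31 to -0.19, with 1.19e-05 to 0.272. Without S2 miR-425-5p was called with upper-quartile factors (-0.24) and DESeq2 size factors (-0.31). miR-191-5p was then called with both (-0.21 and -0.29) and with library totals (-0.10). miR-191-3p turned to 0.033 with library totals and 0.11 with totals without S2, where miR-425-3p turned to 0.10. Upper-quartile factors gave 123 higher miRNAs and library totals 146 higher and 61 lower; the filter of 10 CPM in 3 libraries, with fewer miRNAs tested, gave 66 lower. Leaving out a library gave 49 to 122 higher and 58 to 157 lower. Without S2, upper-quartile factors gave 175 higher, library totals 256 and DESeq2 size factors 125.

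With a library left out, the difference in log2 ratio ranged from -0.23 to 0.071 for miR-425-5p over miR-425-3p and from -0.35 to 0.027 for miR-191-5p over miR-425-5p. Among the neighbours in rank, miR-500a-3p turned to 0.034 with library totals, ranged from -0.22 to 0.10 with a library left out, and without S2 was at 0.17 with upper-quartile factors, 0.28 with totals and 0.10 with DESeq2 size factors. miR-130a-3p turned to 0.0070 with upper-quartile factors, 0.052 with totals and 0.065 with totals without S2.

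The replicate block used the numbers in the column names, of which 1 occurs in both S1 and S2, and gave 38 higher and 50 lower miRNAs; nothing in the labels says that numbers pair the samples, and the estrogen-linked list then had 1 higher and 3 lower. The reference list had 0 lower under the block. The causes of these changes were not tested. miR-191-3p had 736 to 1051 counts per library, the fewest of the 4 arms. Its SE of 0.093 was below those of miR-191-5p (0.123) and miR-425-3p (0.107) and above that of miR-425-5p (0.085).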
